A study of Saccharomyces cerevisiae with 6 samples.

Results

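The 40 genes described here encode nuclear subunits of the mitochondrial respiratory chain and the ATP synthase of budding yeast, the 3 NADH dehydrogenases that feed the chain, and 2 regulators of its transcription, Hap1 and Hap4. They were chosen by name, and each had exactly 1 gene probe set on the array, control probe sets aside, so all 40 were measured among 5449 genes tested. Expression was compared between 3 samples of the nab2-1 mutant and 3 samples of a wild type strain, with 1 Affymetrix yeast array per sample. The nab2-1 strain is a W303-1A derivative whose chromosomal NAB2 gene was replaced with HIS3 and which keeps the nab2-1 allele on a plasmid with a centromere and LEU2, while the wild type is labelled W303-1A with no further allele or plasmid. Both were grown at 30 ºC in YPD, a rich medium with glucose, to exponential phase, and 1 µg of total RNA was labelled per array. The product of NAB2 is an essential nuclear RNA-binding protein that contacts poly(A) tails and takes part in mRNA export. Its probe set averaged 13.71 ± 0.12 in nab2-1 and 12.36 ± 0.07 in the wild type (SD, n = 3 each), a rise of 1.35 ± 0.07 (adjusted p = 4.9e-06), which does not tell the mutant from the normal transcript. The marker HIS3 was at -0.39 ± 0.06 (adjusted p = 0.00059) and the marker LEU2 at 0.21 ± 0.10 (adjusted p = 0.11), so neither was called higher in nab2-1 on the values as deposited. Relative to chromosome medians, a scale described below, LEU2 was higher by 0.32 ± 0.10 (adjusted p = 0.026) and HIS3 was at -0.29 ± 0.06 (adjusted p = 0.0031). A mutant that keeps its only copy of the gene on a plasmid can differ from the wild type through the plasmid and its marker as well as through the allele. No label states that the 3 samples of a strain are separate cultures, and the p-values therefore reflect the spread among these arrays alone, which could be technical.

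The respiratory chain passes electrons from NADH and succinate through coenzyme Q, complex III, cytochrome c and complex IV to oxygen, and the proton gradient that results drives complex V, the ATP synthase. Budding yeast has no proton-pumping complex I and uses single-protein NADH dehydrogenases in its place. On glucose this yeast ferments, and many respiratory genes are held low until glucose runs out, when the CCAAT-binding Hap2/3/4/5 complex, through its activating subunit Hap4, raises their transcription. Hap1 is a haem-dependent activator that acts on genes such as CYC1 when oxygen is present. A few subunits of complexes III, IV and V are encoded in mitochondrial DNA and were not analysed here.

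Signals are log2 values as deposited, and a difference is the log2 signal in nab2-1 minus that in the wild type, with its standard error and n = 3 arrays per group. A gene is said to have risen or fallen where limma's p-value, after Benjamini-Hochberg adjustment over all 5449 genes, was under 0.05. The median difference over the genes of a chromosome reached 0.74 on I, 0.77 on XI and 0.75 on XVI, and lay from -0.14 to -0.08 on the rest. Of the 40 genes, 4 lie on chromosome XI, 4 on XVI and 0 on I, so each difference is also given relative to chromosome medians, so that the typical gene of each chromosome sits at 0. More copies of a chromosome and more RNA per copy cannot be told apart on these arrays. In these bulk samples, neither can a change in the share of cells that express a gene and a change in RNA per cell. W303-1A is a MATa strain, but on these arrays the 4 MATalpha-specific genes had mean signals of 12.74 to 14.13 in nab2-1, against 12.26 to 13.91 in wild type, and the 7 MATa-specific ones 7.02 to 10.05 in nab2-1, against 6.50 to 9.08 in wild type. The summed linear signal of the 7 MATa-specific genes per array was 3968 to 4394 in nab2-1, against 1545 to 1664 in wild type, and that of the 4 MATalpha-specific genes was 39890 to 40880 in nab2-1, against 34340 to 35410 in wild type. These sums are as deposited, and 2 of the 4 MATalpha-specific genes and 1 of the 7 MATa-specific ones lie on chromosomes I, XI or XVI. The median difference of the MATalpha-specific genes was 0.32 as deposited and -0.18 relative to chromosome medians. For the MATa-specific genes it was 1.53 as deposited and 1.23 relative to chromosome medians. The part of these genes in the results was not tested.

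Most of the genes were abundantly expressed, and the 40 did not move as a block. The signal of the 40 was higher than that of 84.4% of genes at the median, and none lay near the level of probe sets for another yeast on the array (4.27). NDI1, COX5B and NDE2 were dimmer, above 45.3%, 43.1% and 5.2% of genes. As deposited, 11 of the 40 rose, against 30.2% of all genes tested, and 8 fell, against 37.2% of all genes. The median difference of the 40 was -0.04, and that of all genes was -0.05. Relative to chromosome medians 7 of the 40 were higher and 8 lower, against 30.1% and 31.5% of all genes, with a median of -0.01 for the 40 and 0.00 for all genes. The shares called among the respiratory genes were thus no larger than those over the genome. On both scales HAP4, NDE1, COX7 and QCR8 were higher and COX4, COX5B, RIP1, CYC1, SDH2 and NDE2 were lower, 10 genes in all, while 18 genes passed on neither scale. The values of all 3 nab2-1 arrays lay above those of all 3 wild type arrays for 13 of the 40 genes, against 32.8% of all genes, and below them for 10, against 41.1% of all genes. On the relative scale they lay above for 8, against 34% of all genes, and below for 9, against 34.6% of all genes. A further scale sets each array by the spiked poly(A) control RNAs, which raises every difference by the same amount. The mean control signal was 7.16, 7.14 and 7.06 on the nab2-1 arrays and 7.38, 7.22 and 7.59 on the wild type arrays. That spread enters every gene alike, while the fit treats the genes as separate. Calls and adjusted p-values on this scale therefore do not measure the uncertainty of the shift and are descriptive only. On it 14 of the 40 were higher, against 39.1% of all genes, and 2 were lower, against 11.4% of all genes, with a median of 0.22 for all genes.

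**Figure D1:**
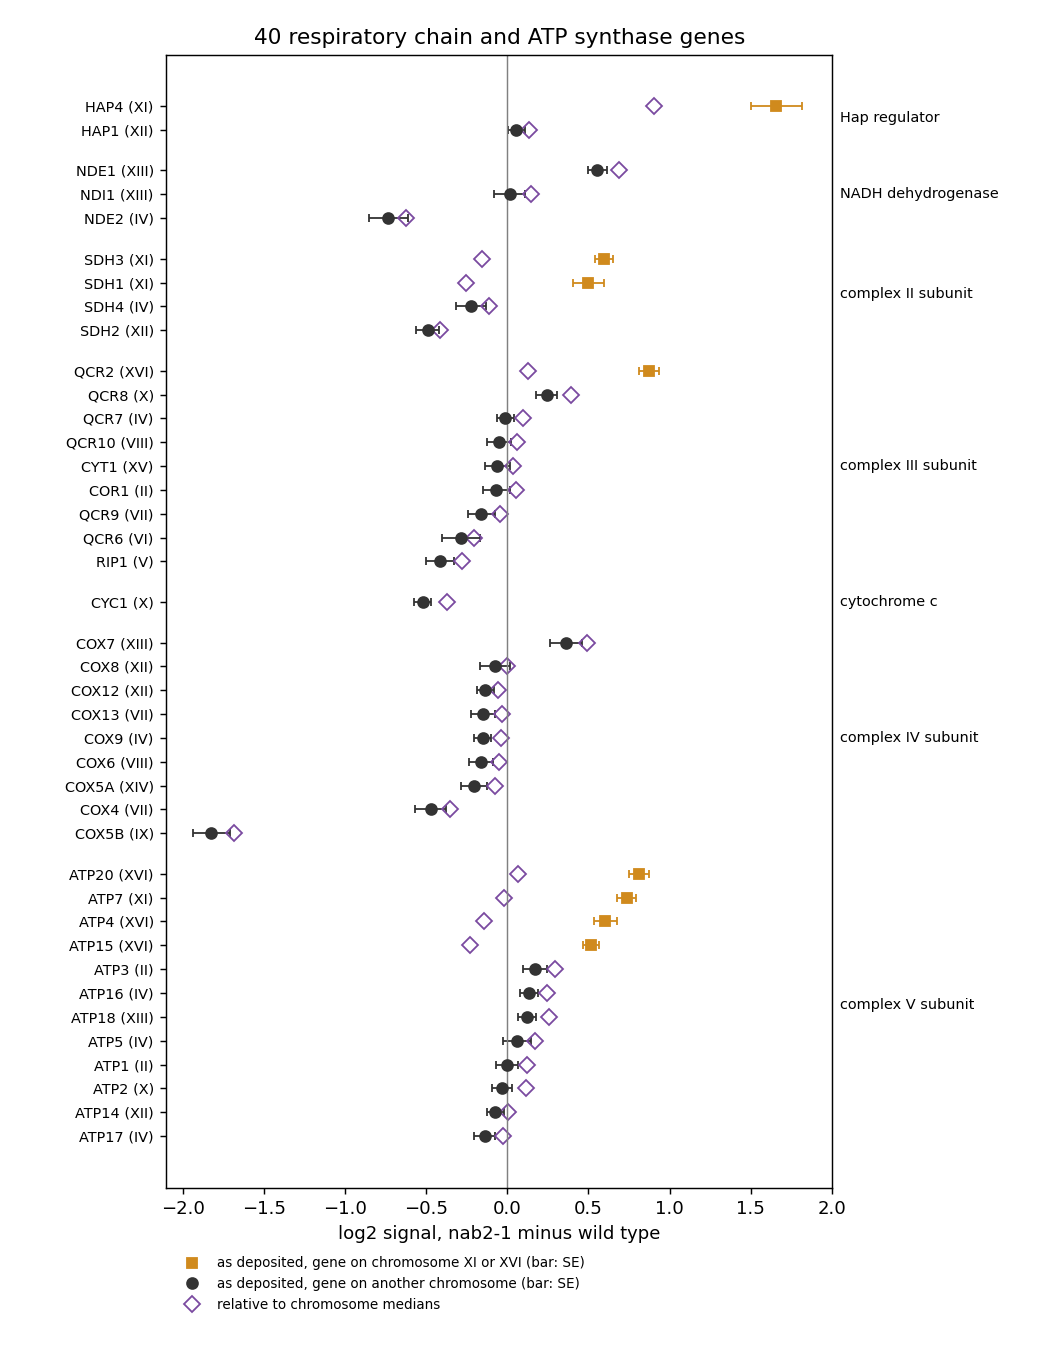
Difference in log2 signal between nab2-1 and wild type (x axis) for the 40 genes, grouped by role, with the chromosome in brackets; filled symbols with bars are the values as deposited ± SE (n = 3 arrays per group), and open diamonds are the values relative to chromosome medians. HAP4 at 1.66 and COX5B at -1.82 stand at the ends, and the 8 genes on chromosomes XI and XVI, drawn as squares, move left by about the medians of 0.77 and 0.75 on the relative scale.

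HAP4, which encodes the activating subunit of the Hap2/3/4/5 complex, had the largest rise of the 40. Its signal was 12.38, 12.56 and 12.03 on the nab2-1 arrays, against 10.78, 10.81 and 10.41 on the wild type arrays. The groups were well apart, with the lowest nab2-1 value above the highest wild type value. The rise was 1.66 ± 0.16, or 3.16-fold (adjusted p = 6e-05), larger than that of 98.6% of all genes. HAP4 lies on chromosome XI, and relative to the chromosome medians it was still higher by 0.91 ± 0.16, or 1.87-fold (adjusted p = 0.0018). Its partners HAP2, HAP3 and HAP5 fell by 0.21, 0.29 and 0.28 as deposited (adjusted p = 0.018, 0.011 and 0.0045), but on the spiked-control scale 0 of the 3 passed in either direction and their median was -0.01. Relative to chromosome medians HAP5 was at -0.19 (adjusted p = 0.025), and HAP2 and HAP3, at -0.09 and -0.17, no longer passed (adjusted p = 0.25 and 0.079). HAP1 had values of 11.16, 11.19 and 11.24 in nab2-1 and 11.14, 11.08 and 11.21 in the wild type, which overlap, and its difference of 0.05 ± 0.05 did not pass (adjusted p = 0.39).

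The NADH dehydrogenases moved in different directions. NDE1 encodes the main external enzyme, which oxidises cytosolic NADH at the outer face of the inner membrane. It had 13.07, 13.19 and 13.19 in nab2-1, against 12.58, 12.68 and 12.53 in wild type, up by 0.55 ± 0.06, or 1.47-fold (adjusted p = 0.00013). With chromosome XIII as its reference the rise was 0.69 ± 0.06 (adjusted p = 6.7e-05). NDE2, the second external enzyme, was the dimmest of the 40, with 6.26, 6.54 and 6.52 in nab2-1 and 7.04, 7.42 and 7.06 in the wild type. It fell by 0.73 ± 0.12, or 1.66-fold (adjusted p = 0.0012), with all nab2-1 arrays below all wild type arrays. NDI1, which oxidises NADH of the matrix, had 10.23, 10.20 and 9.92 in nab2-1 and 10.04, 10.22 and 10.04 in the wild type, and its difference of 0.01 ± 0.10 did not pass (adjusted p = 0.90).

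In complex II, succinate dehydrogenase, the direction followed the chromosome of the gene. SDH1, the flavoprotein subunit that oxidises succinate, and SDH3, which anchors the enzyme in the membrane, lie on chromosome XI. SDH1 had 11.68, 11.78 and 11.54 in nab2-1 and 11.07, 11.35 and 11.07 in the wild type, and SDH3 had 12.64, 12.57 and 12.48 in nab2-1, against 11.94, 11.98 and 11.99 in the wild type. Both rose, by 0.50 ± 0.10 (adjusted p = 0.0024) and 0.60 ± 0.05 (adjusted p = 5.4e-05). SDH2, the iron-sulphur subunit, on chromosome XII, had 11.49, 11.37 and 11.28 in nab2-1 and 11.79, 11.96 and 11.86 in the wild type, a fall of 0.49 ± 0.07, or 1.41-fold (adjusted p = 0.00063), which did not pass on the spiked-control scale (-0.22, adjusted p = 0.22). SDH4, the other anchor subunit, on chromosome IV, differed by -0.22 ± 0.09 and did not pass (adjusted p = 0.059). Relative to chromosome medians all 4 had values below 0. SDH2 was then at -0.41 ± 0.08 (adjusted p = 0.0025), SDH1 at -0.25 ± 0.10 (adjusted p = 0.052) and SDH3 at -0.16 ± 0.06 (adjusted p = 0.041), while SDH4 was at -0.11 (adjusted p = 0.31). The range over the 4 subunits shrank from between -0.49 and 0.60 as deposited to between -0.41 and -0.11 on the relative scale.

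The relative call for SDH3 was lost when any array but nab2-1 replicate 1 was left out (adjusted p from 0.082 to 0.13), and that for SDH1 was gained with the replicate number as a block (adjusted p = 0.016).

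Among the 9 subunits of complex III, 2 rose, 1 fell and 6 did not pass. QCR2, a core subunit on chromosome XVI, had 13.08, 13.08 and 13.02 in nab2-1, against 12.08, 12.29 and 12.19 in wild type, up by 0.87 ± 0.06, or 1.83-fold (adjusted p = 1.6e-05). Relative to its chromosome it was at 0.13 ± 0.06 (adjusted p = 0.11). COR1, the other core subunit, on chromosome II, differed by -0.07 ± 0.08 (adjusted p = 0.50), so the pair of core subunits differed as deposited and lay close to their chromosomes on the relative scale. QCR8, a small subunit near the quinone site, had 13.07, 12.89 and 12.88 in nab2-1 and 12.69, 12.68 and 12.75 in the wild type. It rose by 0.24 ± 0.06 as deposited (adjusted p = 0.011) and was higher by 0.39 ± 0.06 relative to chromosome X (adjusted p = 0.0014). The other small subunits QCR6, QCR7, QCR9 and QCR10 had differences of -0.29, -0.01, -0.16 and -0.05, and CYT1, cytochrome c1, had -0.06, none of them past the threshold (adjusted p from 0.061 to 0.86).

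RIP1, the Rieske iron-sulphur protein of complex III, is the 1 member of the 40 that the array also holds among its control probe sets, at the 5' end, the middle and the 3' end of the gene. On its gene probe set it had 11.56, 11.39 and 11.28 in nab2-1 and 11.73, 11.92 and 11.83 in the wild type, and it fell by 0.42 ± 0.08, or 1.33-fold (adjusted p = 0.0033), a call lost on the spiked-control scale (-0.14, adjusted p = 0.44). The control probe sets gave smaller differences with the same sign. They were -0.32 ± 0.09 at the 5' end (adjusted p = 0.017), -0.18 ± 0.10 in the middle (adjusted p = 0.15) and -0.26 ± 0.08 at the 3' end (adjusted p = 0.017). In all 4 probe sets the highest nab2-1 value was that of replicate 1, and in the middle probe set it lay within the wild type range. Relative to chromosome V the gene probe set was at -0.28 ± 0.09 (adjusted p = 0.026), and this call was lost when any of 4 arrays was left out (adjusted p from 0.061 to 0.079).

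**Figure D2:**
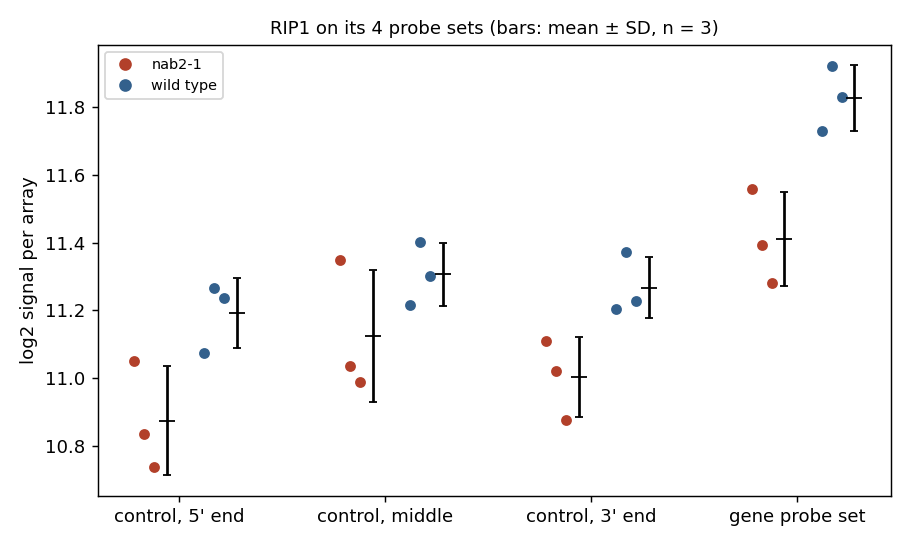
Log2 signal of RIP1 on each array (y axis) for the 3 control probe sets along the gene and for its gene probe set, with nab2-1 in red left of wild type in blue; points are arrays and black bars are the mean ± SD (n = 3). The nab2-1 arrays lie apart from the wild type arrays on the gene probe set (difference -0.42) and on the controls at both ends, and overlap with them in the middle (difference -0.18).

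CYC1 encodes iso-1 cytochrome c, the main carrier of electrons between complexes III and IV and a classical target of Hap1 and Hap4. It had 11.16, 11.10 and 11.07 in nab2-1, against 11.64, 11.56 and 11.69 in the wild type. It fell by 0.52 ± 0.05, or 1.44-fold (adjusted p = 0.0001), with no overlap between the groups, but did not pass on the spiked-control scale (-0.25, adjusted p = 0.16). Relative to chromosome X it was lower by 0.37 ± 0.05 (adjusted p = 0.00074), in the same samples in which HAP4 was higher. CYC7, the minor iso-2 form that is expressed more when oxygen is scarce, had 9.95, 10.04 and 9.51 in nab2-1 and 9.60, 9.94 and 9.61 in the wild type, and its difference of 0.11 ± 0.15 did not pass (adjusted p = 0.53).

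Complex IV, cytochrome c oxidase, held the largest fall. COX5A and COX5B encode alternative forms of 1 subunit, of which COX5A is the aerobic form and COX5B the form used more at low oxygen. COX5B had 9.01, 9.41 and 8.95 in nab2-1, against 10.91, 10.99 and 10.94 in the wild type, where the arrays hardly differed. It fell by 1.82 ± 0.12, or 3.54-fold (adjusted p = 9.7e-06), and only 0.624% of all genes had a lower difference. Relative to chromosome IX the value was -1.69 ± 0.11 (adjusted p = 1.7e-05). At least 2-fold falls past the threshold were seen in 3.96% of all genes, and COX5B was the only such gene among the 40. COX5A had 12.28, 12.05 and 12.03 in nab2-1 and 12.24, 12.39 and 12.35 in the wild type, with a difference of -0.21 ± 0.08 that did not pass (adjusted p = 0.053).

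The shift between the 2 forms was measured within each array as COX5A minus COX5B. This log2 difference between probe sets was 3.27, 2.64 and 3.08 in nab2-1 and 1.33, 1.40 and 1.41 in the wild type, so that the shift was 1.62 and the groups did not overlap. The size of such a difference also reflects the probes, and only its change between strains is a measurement. The same measure for NDE1 minus NDE2 was 6.81, 6.65 and 6.67 in nab2-1 and 5.54, 5.26 and 5.47 in the wild type, a shift of 1.29. For CYC1 minus CYC7 it was 1.21, 1.06 and 1.56 in nab2-1 and 2.04, 1.61 and 2.08 in the wild type, a shift of -0.64. All 3 pairs gave an exact two-sided permutation p of 0.10 over the 6 arrays, also after adjustment over the 3 pairs, and 0.10 is the smallest p that 3 against 3 arrays allow. The paralog expressed more at low oxygen was therefore lower relative to its partner for COX5 and higher for cytochrome c, without a test that could pass the threshold.

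The other subunits of complex IV changed little, apart from COX7 and COX4. COX7, a small subunit, had 11.92, 11.64 and 11.54 in nab2-1 and 11.33, 11.29 and 11.40 in wild type, up by 0.36 ± 0.10 (adjusted p = 0.013), or 0.49 ± 0.10 relative to chromosome XIII (adjusted p = 0.0037). COX4, which binds zinc, had 11.63, 11.33 and 11.29 in nab2-1 and 11.84, 11.98 and 11.84 in the wild type, a difference of -0.47 ± 0.10, or 1.39-fold lower (adjusted p = 0.0035). On the spiked-control scale it did not pass (-0.20, adjusted p = 0.26). Relative to chromosome VII it was at -0.36 ± 0.10 (adjusted p = 0.016), a call lost without nab2-1 replicate 2 or wild type replicate 2 (adjusted p = 0.052 and 0.054). COX9 and COX12, 2 further small subunits, fell by 0.15 ± 0.05 (adjusted p = 0.037) and 0.14 ± 0.05 (adjusted p = 0.046), or 1.11-fold and 1.10-fold, and were at 0.12 and 0.14 on the spiked-control scale. Both lay within 0.06 of their chromosome medians and passed neither on that scale nor after quantile normalization (adjusted p = 0.070 for COX9 and 0.12 for COX12). As deposited the COX9 call was lost when any of 4 arrays was left out (adjusted p up to 0.12), and the COX12 call when any of 5 was (adjusted p up to 0.14). COX6, COX8 and COX13 had differences of -0.16, -0.08 and -0.15, with overlapping groups and none past the threshold (adjusted p = 0.088, 0.49 and 0.10). None of the 9 complex IV genes lies on chromosome I, XI or XVI.

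**Figure D3:**
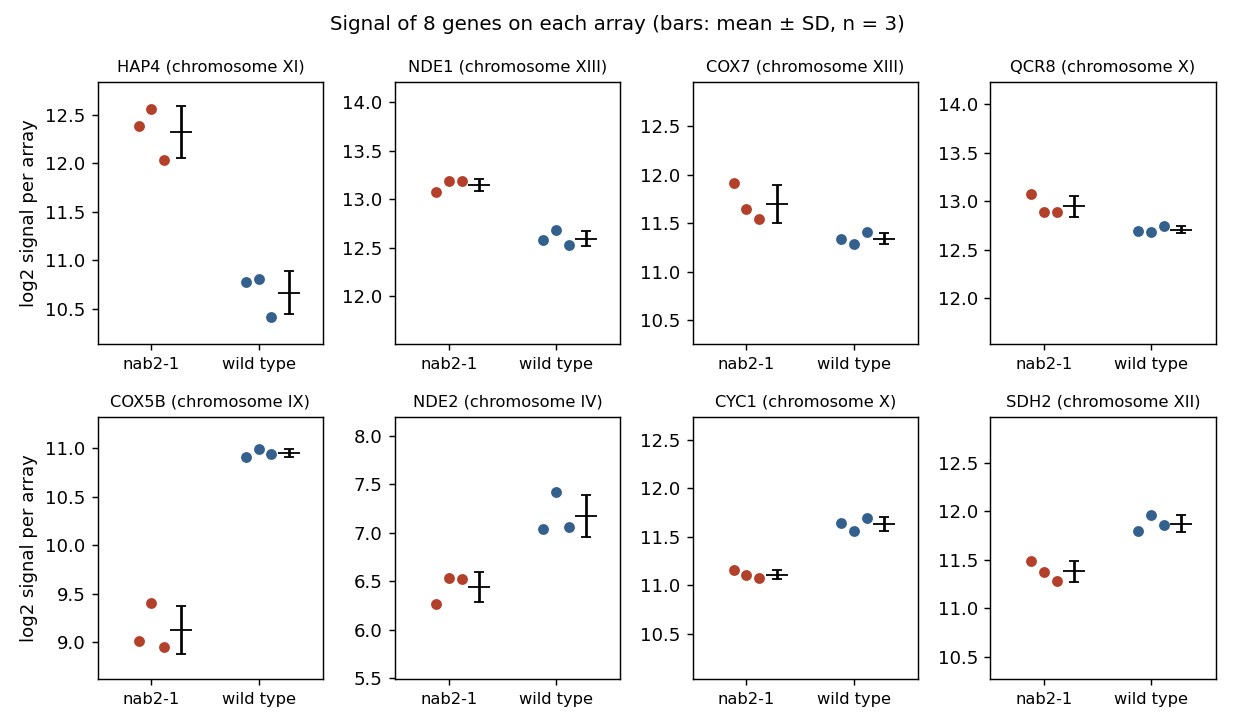
Log2 signal on each array (y axis, the same span of 2.7 log2 units in every panel) for 4 genes that rose (upper row) and 4 that fell (lower row), with nab2-1 left of wild type; points are arrays and bars are the mean ± SD (n = 3). The 2 groups do not overlap for any of the 8 genes, and HAP4 and COX5B are farthest apart.

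In complex V, the ATP synthase, 4 of 12 subunits rose, 0 fell (0 also at an unadjusted p under 0.05 in limma) and 8 did not pass, and the 4 that rose were exactly those on chromosomes XI and XVI. ATP7 and ATP4, subunits d and b of the peripheral stalk, rose by 0.73 ± 0.06 (adjusted p = 2.7e-05) and 0.60 ± 0.07 (adjusted p = 0.00022). ATP15, the epsilon subunit of the rotating central stalk, rose by 0.52 ± 0.05 (adjusted p = 5.4e-05), and ATP20, subunit g, which sits in the membrane and joins synthase dimers, rose by 0.81 ± 0.06 (adjusted p = 2.1e-05). ATP20 for example had 12.81, 12.79 and 12.80 in nab2-1, against 12.02, 11.87 and 12.07 in the wild type. ATP7 had 13.36, 13.20 and 13.23 in nab2-1, against 12.48, 12.52 and 12.58 in the wild type. Relative to their chromosomes the 4 were at -0.02, -0.14, -0.23 and 0.06 in the order above. ATP15 was then lower, by 0.23 ± 0.05 (adjusted p = 0.0037), and the other 3 did not pass (adjusted p from 0.13 to 0.81).

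The catalytic head of the enzyme, ATP1 (alpha) and ATP2 (beta), lies elsewhere in the genome. ATP1 had 13.85, 13.98 and 13.90 in nab2-1 and 13.94, 13.99 and 13.80 in the wild type, and ATP2 had 13.62, 13.56 and 13.43 in nab2-1, against 13.55, 13.62 and 13.53 in the wild type. Neither passed on either scale, with differences of 0.00 ± 0.07 and -0.03 ± 0.06 (adjusted p = 0.97 and 0.65). A further 3 subunits were higher on the relative scale only. ATP3, the gamma subunit of the central stalk, was at 0.29 ± 0.08 (adjusted p = 0.015), ATP16, its delta subunit, at 0.24 ± 0.06 (adjusted p = 0.0081), and ATP18, a membrane subunit, at 0.26 ± 0.05 (adjusted p = 0.0044). As deposited these 3 were at 0.17, 0.13 and 0.12 (adjusted p = 0.079, 0.074 and 0.078), and they passed after quantile normalization (adjusted p = 0.042, 0.028 and 0.034). ATP5, ATP14 and ATP17 were at 0.06, -0.07 and -0.14 as deposited and passed on neither scale. ATP3, ATP16 and ATP15 together form the central stalk, and ATP15 was the 1 of the 3 below its chromosome median.

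Within complexes II, III and V the genes of chromosomes XI and XVI were apart from the rest. In complex V the 4 such genes had differences from 0.52 to 0.81, and the other 8 from -0.14 to 0.17. In complex III QCR2 was at 0.87, against -0.42 to 0.24 for the other 8, and in complex II SDH1 and SDH3 were at 0.50 and 0.60, against -0.49 and -0.22 for SDH2 and SDH4. Among all genes of chromosomes XI and XVI 90.2% rose, so that 8 of 8 respiratory genes there is close to that share. Among the 32 respiratory genes on other chromosomes 3 rose and 8 fell, against 19.8% and 43.2% of all genes outside I, XI and XVI. The SD of the 12 differences in complex V was 0.16 relative to chromosome medians, against 0.33 as deposited, and that of the 4 in complex II was 0.13, against 0.54 as deposited. In complex IV, with no gene on these chromosomes, it was 0.60 relative to chromosome medians and 0.61 as deposited.

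**Figure D4:**
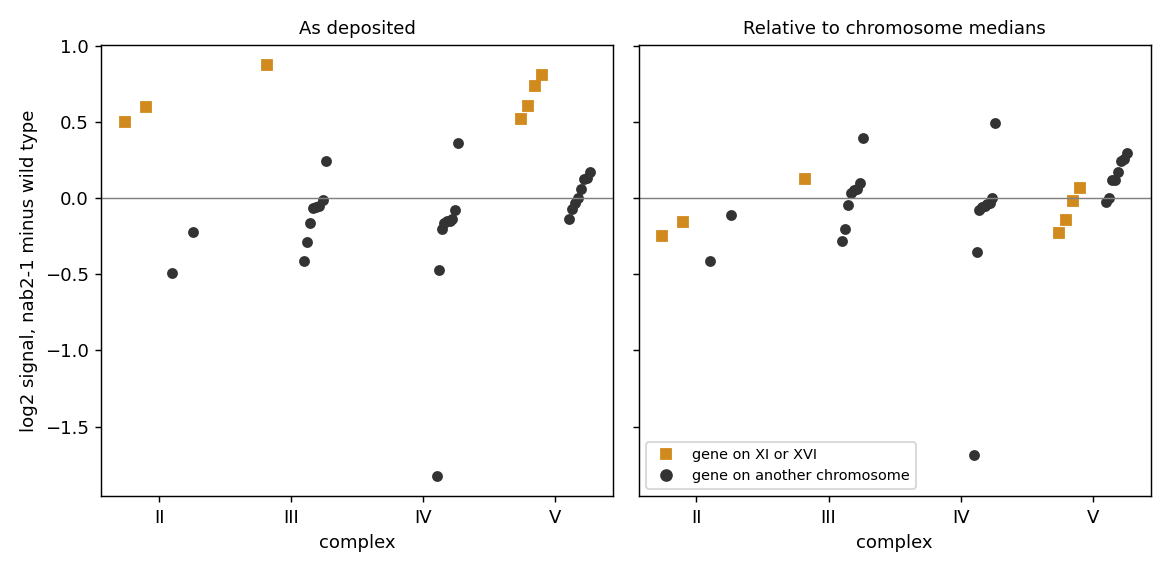
Difference in log2 signal between nab2-1 and wild type (y axis) for each subunit gene of complexes II to V, as deposited (left) and relative to chromosome medians (right); squares are genes on chromosome XI or XVI and circles are genes on other chromosomes, with 1 symbol per gene. On the left the squares lie at 0.50 or higher and above all circles of their complex, and on the right they lie among or below the circles.

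The members also varied together within each group. Replicate 1 was the highest of the nab2-1 arrays for 26 of the 40 genes (65.0%), against 36.7% of all genes, and replicate 3 the lowest for 30 (75.0%), against 28.5% of all genes. In the wild type, replicate 2 was the highest array for 26 of the 40 (65.0%), against 32.7% of all genes. The median SD between replicates was 0.106 in nab2-1, against 0.074 in wild type, for the 40 genes, and 0.078 in nab2-1, against 0.065 in wild type, for all genes. The genes are not independent of each other here, and these shares describe 6 arrays. For complex IV the median over its 9 genes, relative to the wild type mean of each, was -0.06, -0.17 and -0.23 on the 3 nab2-1 arrays and -0.04, 0.04 and -0.01 on the wild type arrays.

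Other genes of the pathway were counted from lists of general knowledge, to be read against the 30.2% of all genes that rose and 37.2% that fell as deposited, and the 39.1% higher and 11.4% lower on the spiked-control scale. Of 8 measured genes for further subunits and inhibitors of complexes III to V, 5 fell and 0 rose in limma (0 also at an unadjusted p under 0.05), also relative to chromosome medians, with a median of -0.44. STF2 and INH1, which act on the inhibition of ATP hydrolysis by the synthase, fell by 0.61 ± 0.10 and 0.51 ± 0.14 (adjusted p = 0.0010 and 0.014), and RCF1, which binds complexes III and IV, fell by 0.57 ± 0.07 (adjusted p = 0.00028). STF1 and RCF2 fell as well, while the subunit genes ATP19 and TIM11 were at -0.03 and -0.02. On the spiked-control scale 1 of the 8 was lower and 1 higher.

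Of 32 assembly and translation factors of complex IV, 16 fell and 4 rose, with a median of -0.19 as deposited and 0.09 on the spiked-control scale. PET122, which activates translation of COX3 mRNA in mitochondria, fell by 0.84 ± 0.10 (adjusted p = 0.00024), MSS51, its counterpart for COX1, by 0.72 ± 0.05 (adjusted p = 1.6e-05), and OXA1, the membrane insertase, by 0.58 ± 0.09 (adjusted p = 0.00078). The 4 that rose, COA2, COX11, CMC1 and COX10, all lie on chromosomes XI and XVI, and none was higher relative to them, COX10 being lower (-0.48). On the relative scale 12 were lower and 2 higher, and scaled to the spiked controls 2 were lower and 6 higher. Of 18 factors of complexes II and III, 6 rose and 4 fell as deposited, a share of rises near that of all genes, and on the spiked-control scale 10 were higher and 1 lower. CYC3 and CYT2, which attach haem to cytochromes c and c1, rose by 1.14 ± 0.05 and 1.12 ± 0.05 (adjusted p = 2.4e-06 and 2.6e-06) and were higher by 0.41 and 0.36 relative to chromosomes I and XI. CBP6, which acts in the translation of cytochrome b, fell by 0.72 ± 0.07 (adjusted p = 6.8e-05). Of 14 factors of complex V, 4 rose and 5 fell, shares near those of all genes, among them AEP3, up by 1.41 ± 0.06 or 0.67 relative to chromosome XVI, ATP22, up by 0.58 ± 0.06, and NCA3, at -3.16 ± 0.14 (adjusted p = 2.5e-06). On the spiked-control scale 5 of these were higher and 1 lower.

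Coenzyme Q is a small carrier of the chain, and haem is a group bound in its cytochromes. Of 10 coenzyme Q synthesis genes 7 fell and 1 rose, with COQ11 at -0.88 ± 0.08, COQ2, the polyprenyl transferase, at -0.69 ± 0.05 and COQ4 at -0.55 ± 0.06 (adjusted p = 4e-05, 2.4e-05 and 9.1e-05), and COQ3, a methyltransferase, at 0.25 ± 0.05 (adjusted p = 0.0042). Of 8 haem synthesis genes 4 fell and 2 rose. HEM15, ferrochelatase, fell by 0.67 ± 0.08 (adjusted p = 0.00022) and HEM4 by 0.63 ± 0.05 (adjusted p = 2.2e-05), while HEM13, which needs oxygen and is raised in its absence, rose by 0.49 ± 0.06 (adjusted p = 0.00020). HEM3 also passed, but its wild type values of 5.80, 7.54 and 5.51 spread far more than its nab2-1 values of 8.02, 8.17 and 7.90. On the spiked-control scale 2 of the coenzyme Q genes were lower and 3 higher, and 2 of the haem genes were lower and 2 higher.

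The tricarboxylic acid cycle supplies the NADH and succinate that the chain oxidises, and most of its genes were lower. Of 14 measured genes 11 fell and 2 rose as deposited, with a median of -0.43, and 11 were lower and 1 higher relative to chromosome medians, with a median of -0.36. IDH1 and IDH2, the subunits of isocitrate dehydrogenase, fell by 0.77 ± 0.06 and 0.67 ± 0.07 (adjusted p = 3.3e-05 and 9.2e-05), and ACO1, aconitase, fell by 0.62 ± 0.09 (adjusted p = 0.00071). The 2 that rose, CIT3 and FUM1, lie on chromosome XVI, where CIT3 was still higher (0.40) and FUM1 lower (-0.30). On the spiked-control scale 4 of the 14 were lower and 3 higher. Among 12 genes of other electron donors and mitochondrial carriers 6 fell and 2 rose, with a median of -0.19 as deposited and 0.09 on the spiked-control scale. DIC1, the dicarboxylate carrier, fell by 2.18 ± 0.10 (adjusted p = 2.8e-06) and DLD1, a lactate dehydrogenase that reduces cytochrome c, by 0.73 ± 0.07 (adjusted p = 7.6e-05), while SFC1, the succinate-fumarate carrier used in growth on non-fermentable carbon, rose by 1.22 ± 0.11 (adjusted p = 4.2e-05).

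Glucose-repressed genes outside the chain moved mostly the other way. Of 18 such genes 10 rose and 4 fell, and their median difference was 0.45. Relative to chromosome medians it was 0.46, and 11 genes passed as higher and 2 as lower. The genes were mostly dim, with a median signal above that of 17.55% of genes, and their median depended on the normalization. After quantile normalization it was 0.23, and 8 genes passed as higher and 5 as lower. After cyclic loess normalization it was 0.35, and the counts stayed at 10 and 4. The median over all 10928 probe sets was 7.09, 7.10 and 7.14 on the nab2-1 arrays, against 6.81, 6.88 and 6.87 on the wild type arrays. Over the tested genes alone it was 10.27, 10.28 and 10.29 in nab2-1, against 10.28, 10.29 and 10.30 in wild type. What part the scaling of dim signals has in this rise was not tested. JEN1, the lactate permease, rose by 2.09 ± 0.09 (adjusted p = 2.2e-06), YAT1, a carnitine acetyltransferase, by 1.80 ± 0.19 (adjusted p = 0.00011), and FBP1, the gluconeogenic fructose bisphosphatase, by 1.37 ± 0.08 (adjusted p = 6.6e-06). JEN1 was at 1.34 and YAT1 at 1.07 relative to their chromosomes XI and I, and FBP1, on chromosome XII, was at 1.45. ALD4, the mitochondrial aldehyde dehydrogenase, fell by 0.97 ± 0.13 (adjusted p = 0.00035), and POX1 and HXK1, which act in fatty acid and hexose breakdown, were lower at -0.79 ± 0.09 (adjusted p = 0.00016) and -0.47 ± 0.15 (adjusted p = 0.028). SUC2 fell as well, by 0.26 ± 0.07 (adjusted p = 0.0093). Relative to chromosome medians HXK1 and SUC2 no longer passed (adjusted p = 0.063 and 0.13). A subset of 9 was taken as markers of glucose exhaustion, namely ADH2, ICL1, MLS1, FBP1, PCK1, ACS1, JEN1, CAT8 and SIP4, and holds none of the 4 genes of the list that fell. Of these 9, 7 rose, and all lay above the 4.27 of the other yeast's probe sets. The summed linear signal of all 9 was 2790 to 3317 in nab2-1, against 1603 to 1800 in wild type. This sum is as deposited and weighs bright genes most, among them ACS1 on chromosome I and PCK1 on XI. Relative to their chromosomes ACS1 was at 0.04 (adjusted p = 0.64), PCK1 at 0.59 and JEN1 at 1.34. On that scale 7 of the 9 still passed as higher, and the median difference of the 9 was 0.59, against 0.77 as deposited. ADH2 and ICL1 did not pass as deposited, with differences of -0.07 and 0.06 (adjusted p = 0.62 and 0.28), and ICL1 was higher relative to chromosome V (0.19, adjusted p = 0.0085). What part the state of the cultures has in the values of HAP4 and the respiratory genes was not tested.

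The regulators of glucose repression were counted too, and 7 of 13 fell and 2 rose, with a median of -0.22 as deposited. Relative to chromosome medians 6 were lower and 4 higher, with a median of -0.11. On the spiked-control scale 2 were lower and 3 higher, with a median of 0.05. SNF4 and RGT2, a subunit of the Snf1 kinase and a glucose sensor, fell by 0.83 ± 0.06 and 0.73 ± 0.07 (adjusted p = 1.7e-05 and 8.6e-05), MIG1, the repressor, fell by 0.54 ± 0.06 (adjusted p = 0.00011), and REG1 and GLC7, which form a phosphatase acting on Snf1, rose by 0.38 ± 0.05 and 0.29 ± 0.07 (adjusted p = 0.00059 and 0.0060). Of 13 genes listed as hypoxic and repressed by Rox1 or Mot3, 3 rose and 4 fell, with 7 higher and 1 lower on the spiked-control scale. This list also holds ROX1 and MOT3, the genes of the repressors themselves, so its counts are not of repressed targets alone. HEM13, DAN1 and TIR1 rose by 0.49, 0.49 and 0.32. HMG2 and ERG26 were lower at -0.90 and -0.43, as was the repressor gene MOT3 at -0.47. ROX1 was at 0.11 as deposited (adjusted p = 0.081) and lower relative to chromosome XVI (-0.64, adjusted p = 4e-05). Of 11 genes that maintain and express mitochondrial DNA 1 rose and 4 fell as deposited, and SUV3, on chromosome XVI, was the 1 that rose (0.65). HMI1, MRH4 and MTF1 led the falls at -0.30, -0.26 and -0.24, and on the relative scale 4 of the 11 were higher and 1 lower, against 5 higher and 0 lower on the spiked-control scale.

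**Figure D5:**
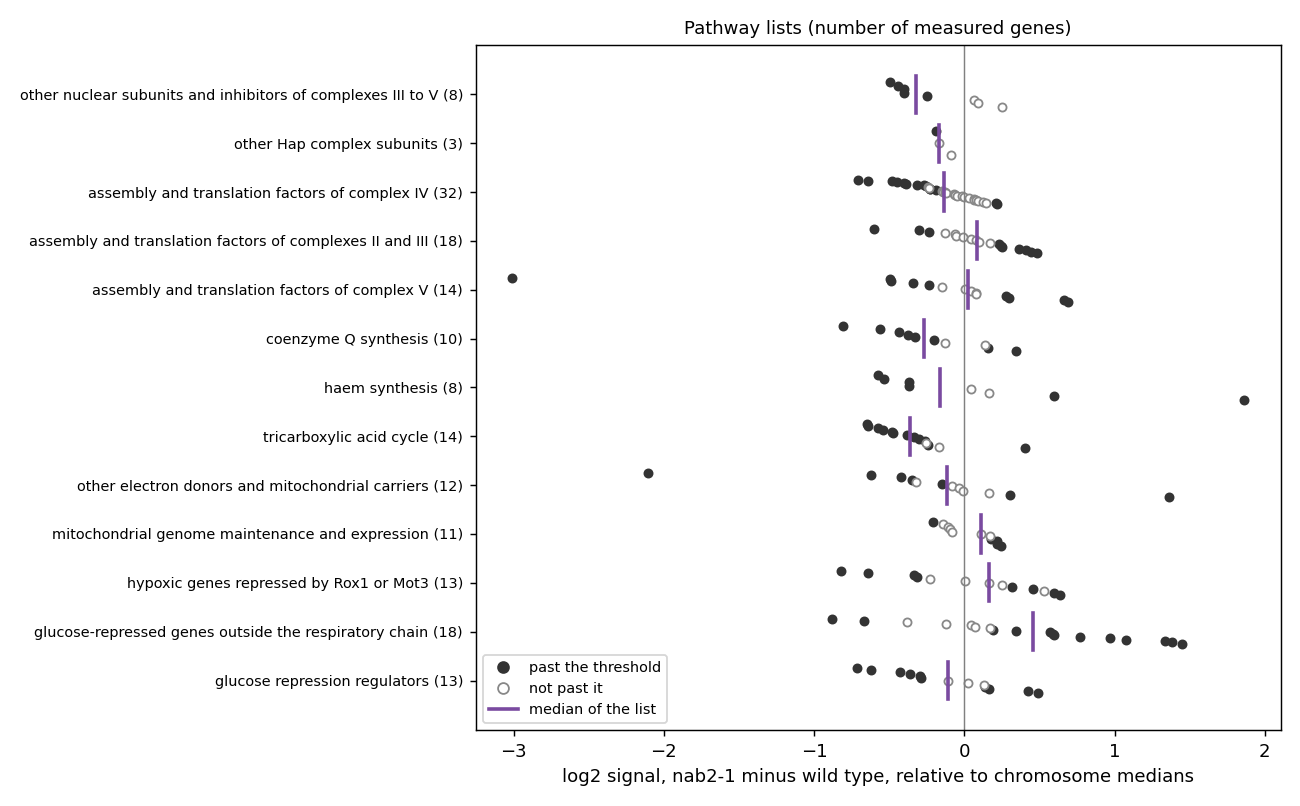
Difference in log2 signal between nab2-1 and wild type relative to chromosome medians (x axis) for the genes of 13 pathway lists, with the number of measured genes in brackets; filled points passed the threshold over all genes, open points did not, and the bar is the median of the list. The tricarboxylic acid cycle has its median at -0.36 and the glucose-repressed genes at 0.46; on the spiked-control scale, without the chromosome medians, these medians were -0.16 and 0.72.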

How the data were processed

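The deposited table holds 1 log2 signal per probe set and array for 10928 probe sets, normalized by the authors; GCOS, RMA and limma are named per the submitters' processing notes, without versions, and no genome build is given in the sources used here. Values were used as deposited. Probe sets were matched to genes through the platform annotation, with symbols updated from the RefSeq table of S288C assembly R64, and the highest-mean probe set per gene left 5449 genes; chromosomes were read from systematic names. The test was two-sided, from lmFit and eBayes of limma 3.58.1 (R 4.3.3), with Benjamini-Hochberg adjustment over all genes and a threshold of 0.05. For values relative to chromosome medians, the median deviation of a chromosome's genes from their means was subtracted on each array before the same fit. The other-species level is the 95th percentile of 1746 probe sets. Scripts were tested on simulated data.

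All members are named; of each other list, up to 3 called genes per direction with groups that did not overlap were named, and any further gene was chosen after its values were seen. The members and lists were chosen with earlier results of these data known. Alternatives were normalization, scaling to 36 spiked poly(A) control probe sets, weights, variance model, replicate block, filters, thresholds and leaving out arrays. Figures were drawn with matplotlib 3.10.9. The number of arrays limits precision, with a median standard error of 0.072 for the members. No sequences were used here.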

Additional observations from a re-analysis of the deposited data

How the results depend on the processing

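Scaling to the spiked controls, whose mean had an SD of 0.054 over the nab2-1 arrays and 0.19 over the wild type arrays, moved the median of all genes from -0.05 to 0.22, and that of the 40 genes to 0.23; relative to this shift the order of the genes is the same. Then 14 of the 40 were higher and 2 lower (COX5B at -1.55 and NDE2 at -0.46). COX4, RIP1, CYC1 and SDH2 no longer passed (-0.20, -0.14, -0.25 and -0.22), and COX9 and COX12 changed sign (0.12 and 0.14). On this scale 21 list genes were lower, against 83 as deposited, and 77.4% of all called genes were higher, against 44.8%. List genes here are those of the 13 pathway lists together with the MATa-specific, MATalpha-specific and haploid-specific genes. As deposited 48 list genes were higher, among them 7 MATa-specific, 3 MATalpha-specific and 2 haploid-specific. The 83 lower include 1 MATalpha-specific and 2 haploid-specific genes. Of the list genes at least 2-fold higher as deposited, 5 were MATa-specific. With chromosome medians 7 of the 40 were higher, against 11 without, and SDH1, SDH3, ATP4, ATP7 and ATP15 changed sign (-0.25, -0.16, -0.14, -0.0179 and -0.23, against 0.50, 0.60, 0.60, 0.73 and 0.52 without). When genes of I, XI and XVI were omitted 3 members and 26 list genes were higher (31.4% of all called genes), the members there being left out. With array weights 13 members were lower. Without the dimmest 25% of genes 31 list genes were higher as deposited and 33 on the relative scale, since fewer were tested. At least 2-fold, 1 member was higher and 1 lower, with 17 and 2 list genes; on the relative scale 0 members were higher in limma (the largest difference was 0.91) and 1 lower, with 11 and 2 list genes. At an adjusted p of 0.01 5 were lower on that scale. Leaving out each array in turn gave 11 to 12 members higher and 6 to 12 lower, and 7 to 9 higher and 5 to 8 lower on the relative scale, the 5 without wild type replicate 2. The list genes numbered 47 to 50 higher and 71 to 79 lower, and 41 to 53 and 62 to 72 on the relative scale. The replicate numbers do not pair the arrays (correlations of same-numbered deviations -0.19, 0.19 and -0.14). With nab2-1 replicates 1, 2 and 3 set beside wild type replicates 3, 2 and 1, the correlations were 0.27, 0.19 and 0.22. All other correlations lay from -0.24 to 0.05. The main fit does not use this order, and a pairing in it was not tested. With the replicate number as a block 11 members were higher and 9 lower, and 7 and 9 on the relative scale. COX12 was lost (adjusted p = 0.093) and QCR6 and SDH4 were gained as lower (0.020 and 0.019); on the relative scale SDH3 was lost (0.081) and QCR6 and SDH1 were gained (0.043 and 0.016). HAP4, NDE1, NDE2, COX5B, COX7 and QCR8 kept their call and direction on both scales under every normalization, filter, weight, variance model and left-out array in which they were tested. The cause of the differences between scalings was not tested.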
